A study of Mus musculus with 10 samples.

Results

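The 84 genes whose symbol begins with Il and a digit, the interleukins and their receptors in the gene nomenclature, were followed in hepatic stellate cells (HSCs), the vitamin A storing cells of the liver sinusoid. They were taken by symbol alone from a table of 62322 entries, of which 25233 carried a symbol, and no measured value entered this rule. By role they were 38 ligands, 40 receptor chains, 4 antagonists or binding proteins (*Il1rn*, *Il18bp*, *Il36rn* and *Il22ra2*) and 2 others, *Il4i1*, an amino acid oxidase named for its induction by interleukin-4, and *Il1bos*, an RNA on the strand opposite to *Il1b*.

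RNA was sequenced from 5 preparations of hypertrophied HSCs (hypHSCs) and 5 of quiescent HSCs (qHSCs), all from livers of C57BL/6J mice and sorted by flow cytometry after dissociation and a density gradient. The hypHSC mice ate CDAHFD, a high-fat diet poor in choline and methionine used to bring on steatohepatitis with fibrosis, for 13 weeks (hypHSC 1 and 2, aged 19 weeks) or 12 weeks (hypHSC 3, 4 and 5, aged 18 weeks). The qHSC mice ate standard diet and were 36 weeks old (qHSC 1, 2 and 5) or 34 weeks old (qHSC 3 and 4). The hypHSC gate used a green and the qHSC gate a blue fluorescence. Livers on either diet were digested under different conditions, with antibiotics in most buffers for CDAHFD livers only. Diet, age, digestion, antibiotics and gate therefore cannot be told apart. The hypHSC preparations had been picked for RNA integrity from more samples than there were mice, so that the 5 libraries may share animals and a p-value measures the spread between preparations.

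Libraries held 30534719 to 43283589 reads on genes with a symbol in hypHSCs and 35640104 to 47317028 in qHSCs, and 3 reads, taken as the floor of detection, were worth 2.25 to 4.54 normalized counts. Mitochondrial entries took 2.21% to 12.8% of the reads in hypHSCs and 1.25% to 1.61% in qHSCs. The labelled cell type was checked against its markers before anything else. All 13 HSC markers listed (among them *Lrat*, *Reln* and *Dcn*) were called lower in hypHSCs, their sum being 32282 to 63586 normalized counts against 1309879 to 2159898 in qHSCs, and none was at the floor throughout a group. All 12 macrophage markers (such as *Lyz2*, *Cd68* and *C1qb*) were called higher, with a sum of 1032116 to 1447586 normalized counts in hypHSCs. In qHSCs the macrophage sum was 46421, 5971, 10137, 103681 and 8694 in qHSC 1 to 5, so that qHSC 4 and qHSC 1 stood above the others. In these bulk samples, fewer cells of a type and less RNA per cell cannot be told apart. The part of macrophage RNA in the differences below was not tested, and the groups are called by their labels.

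**Figure D1:**
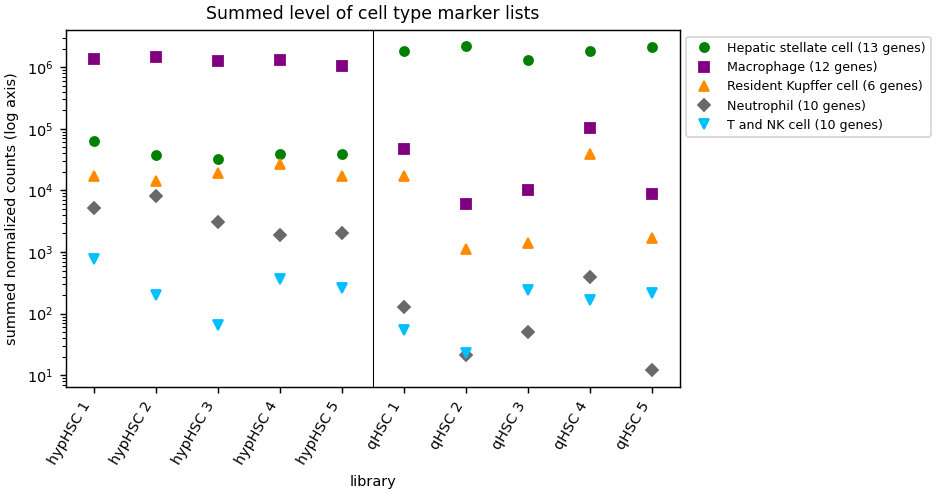
Summed normalized counts (log axis) of 5 lists of cell type markers in each library, hypHSC 1 to 5 left of the line and qHSC 1 to 5 right of it. Macrophage markers summed to 1032116 or more in each hypHSC library and to at most 103681 in qHSCs, and HSC markers to at most 63586 in hypHSCs and at least 1309879 in qHSCs.

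Interleukins are secreted signals that act on cells carrying the matching receptor chains. Receptors are built from shared chains, such as the common gamma chain (*Il2rg*) for interleukins of the T-cell growth factor group and gp130 (*Il6st*) for the interleukin-6 group, together with a chain particular to each ligand, and most of these signal through JAK kinases and STAT factors. The interleukin-1 and interleukin-17 systems signal instead through adaptors that lead to NF-κB, and the interleukin-1 system is held in check by a receptor antagonist, a decoy receptor and a binding protein. In the liver, macrophages are known as producers of interleukin-1, interleukin-10 and interleukin-18, and stellate cells as a source of interleukin-33 and interleukin-34 and as responders to several of these signals.

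Of the 84 genes, 22 had no read in any library and 3 more never exceeded 3 reads in a library, whereas 29 had reads in all 10. Enough signal for a test (at least 10 normalized counts in at least 5 libraries) was found for 43, and 41 were not tested. With limma on log2(normalized count + 1), where a call needs a log2 fold change of 1 or more in size together with an adjusted p no higher than 0.05, 14 were higher and 12 lower in hypHSCs and 17 were not called. Over all 14630 genes tested, 17.8% were called higher, 21.7% lower and 39.5% in either direction. The 26 called are 60.5% of the 43, a share above that background that is given as a description only, since a gene high in 1 group alone passed the filter through that group. The median log2 fold change was 0.34 for the 43 and -0.20 for all genes tested, and the median absolute log2 fold change was 2.23 against 1.02. For 21 of the 43, 11 with hypHSCs above and 10 with hypHSCs below, no library of one group overlapped the other, which was so for 39.5% of all genes tested. To groups that do not overlap, an exact two-sided permutation test of 5 libraries against 5 always gives its smallest p, 0.00794. That p therefore adds nothing for these 21. Without hypHSC 5 and qHSC 4, left out together after the values had been seen, 18 were called higher and 11 lower, and of the 26 called with all libraries, *Il31ra* and *Il17rd* were lost.

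**Figure D2:**
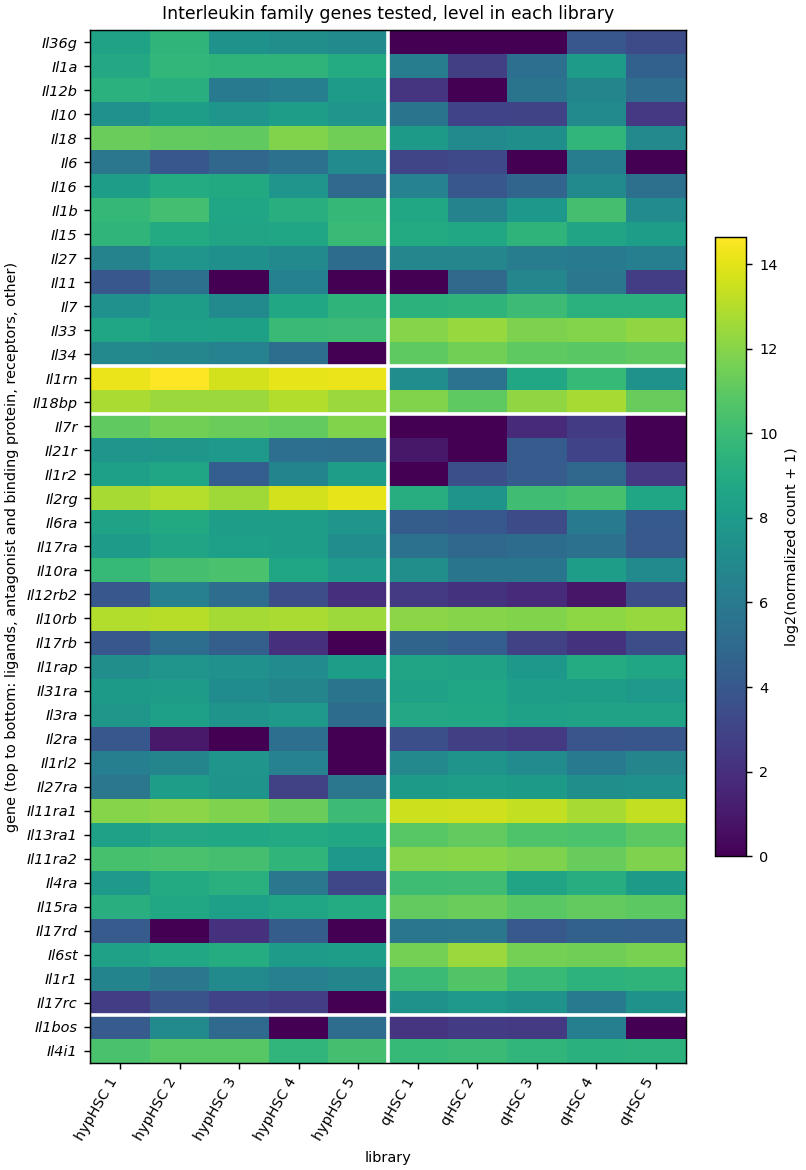
Level of the 43 tested genes in each of the 10 libraries, as log2(normalized count + 1) in colour, with ligands at the top, then the antagonist and binding protein, receptors and others, ordered by fold change within each. Within ligands and receptors hypHSC columns are brighter at the top and qHSC columns brighter towards the bottom, and *Il1rn* and *Il18bp* are bright in all 5 hypHSC libraries.

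By role, 6 of 14 tested ligands were called higher and 3 lower, and 7 of 25 tested receptor chains higher and 9 lower, of which 5 were still called lower when the test was against a log2 change of 1. Of the 2 antagonists or binding proteins tested, *Il1rn* was called higher and *Il18bp* was not called. The median log2 fold change was 1.82 for tested ligands and -1.23 for tested receptor chains, against -0.20 for all genes tested. Of all genes tested, 17.8% were called higher and 21.7% lower. These role counts are a description only, since a gene high in 1 group alone passed the filter through that group.

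**Figure D3:**
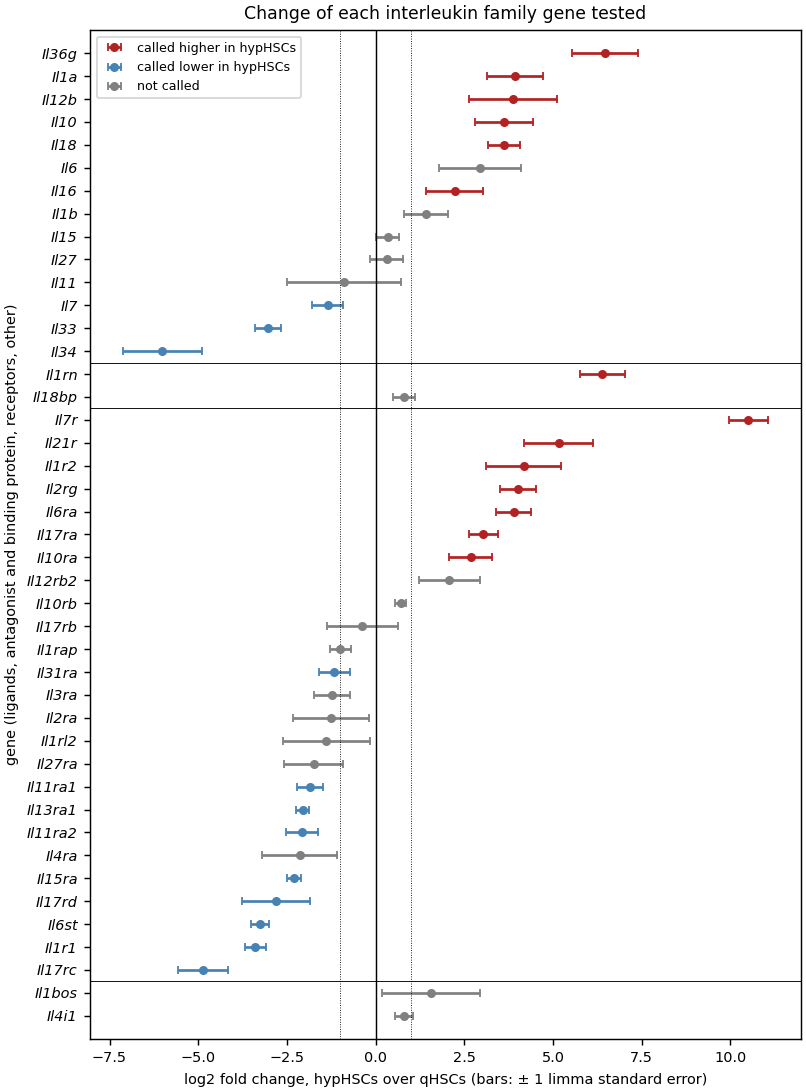
Log2 fold change of hypHSCs over qHSCs for the 43 tested genes, with bars of 1 limma standard error and dotted lines at -1 and 1. The 14 genes called higher run from 2.23 (*Il16*) to 10.51 (*Il7r*) and the 12 called lower from -1.16 (*Il31ra*) to -6.01 (*Il34*).

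For orientation, the sequence before and around the start of 6 called genes is shown, chosen because their windows hold a motif of factors that act downstream of, or upstream of, interleukin signals. They are RefSeq promoter windows (build GRCm38.p6) of 250 bases before to 50 after an annotated start, and each matched GRCm39 exactly at the position given. Capitals mark matches, on either strand, to the STAT motif TTCNNNGAA, the AP-1 motif TGAGTCA and the ETS motif GGAAGT. *Il7r*, *Il1r2*, *Il1a* and *Il1rn* were called higher in hypHSCs, and *Il1r1* and *Il15ra* lower.
Il7r, chr15:9529913-9530212, minus strand: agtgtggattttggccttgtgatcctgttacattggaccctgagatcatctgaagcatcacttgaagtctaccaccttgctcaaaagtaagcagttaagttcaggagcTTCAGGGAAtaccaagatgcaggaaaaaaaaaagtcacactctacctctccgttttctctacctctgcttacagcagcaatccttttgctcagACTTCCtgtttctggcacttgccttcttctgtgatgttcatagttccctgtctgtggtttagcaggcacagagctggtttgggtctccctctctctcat
Il1r2, chr1:40125003-40125302, plus strand: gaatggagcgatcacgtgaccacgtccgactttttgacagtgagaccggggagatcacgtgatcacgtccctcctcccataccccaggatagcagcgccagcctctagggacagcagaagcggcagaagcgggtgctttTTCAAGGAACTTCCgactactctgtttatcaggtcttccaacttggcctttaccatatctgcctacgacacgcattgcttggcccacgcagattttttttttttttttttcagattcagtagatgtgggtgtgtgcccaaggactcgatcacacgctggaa
Il1a, chr2:129151843-129152142, minus strand: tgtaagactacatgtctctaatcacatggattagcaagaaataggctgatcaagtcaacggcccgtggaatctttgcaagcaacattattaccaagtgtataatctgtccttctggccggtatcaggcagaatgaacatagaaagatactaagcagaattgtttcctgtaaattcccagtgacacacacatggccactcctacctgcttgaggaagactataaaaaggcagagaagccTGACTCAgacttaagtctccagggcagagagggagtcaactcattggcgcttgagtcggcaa
Il1rn, chr2:24226622-24226921, plus strand: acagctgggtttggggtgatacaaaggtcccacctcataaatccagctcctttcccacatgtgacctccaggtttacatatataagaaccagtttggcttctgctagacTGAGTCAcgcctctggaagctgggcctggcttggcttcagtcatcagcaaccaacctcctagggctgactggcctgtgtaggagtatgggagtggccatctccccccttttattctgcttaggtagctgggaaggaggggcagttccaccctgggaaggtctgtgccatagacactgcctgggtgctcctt
Il1r1, chr1:40263990-40264289, plus strand: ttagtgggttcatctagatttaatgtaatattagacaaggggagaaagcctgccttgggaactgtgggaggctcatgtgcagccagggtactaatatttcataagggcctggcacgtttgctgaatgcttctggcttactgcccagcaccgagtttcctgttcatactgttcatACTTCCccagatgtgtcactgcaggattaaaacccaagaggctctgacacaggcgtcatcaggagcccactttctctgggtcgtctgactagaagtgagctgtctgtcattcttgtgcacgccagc
Il15ra, chr2:11710273-11710572, plus strand: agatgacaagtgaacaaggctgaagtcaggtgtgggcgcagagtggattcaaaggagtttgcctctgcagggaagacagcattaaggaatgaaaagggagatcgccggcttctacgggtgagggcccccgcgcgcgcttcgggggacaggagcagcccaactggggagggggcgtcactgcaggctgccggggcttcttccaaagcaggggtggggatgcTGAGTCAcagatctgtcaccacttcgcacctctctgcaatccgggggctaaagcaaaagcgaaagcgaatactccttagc

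The receptor genes *Il7r* and *Il1r2* each held a STAT and an ETS match, at positions -142 and -49 from the start in *Il7r* and at -111 and -103, where the matches share a base, in *Il1r2*. An AP-1 match lay at -12 in *Il1a*, at -141 in the upstream one of 3 *Il1rn* windows and at -30 in one of 2 *Il15ra* windows, and an ETS match at -76 in *Il1r1*. Windows were found for 20 of the 26 called genes and 63 of the 84. Among 14 windows of 10 genes called higher, STAT was matched in 2, AP-1 in 3 and ETS in 3, and among 14 windows of 10 genes called lower in 1, 1 and 5. Of 32851 windows of the same length, 8.3% held the STAT motif, 5.2% AP-1 and 23.8% ETS. The C/EBP motif TTGCNNCAA (2.08% of all windows) was in none of the 28, and the NF-κB motif (8.46%) was in a window each of *Il16* and *Il1r1*. These are matches of letters, and no binding was measured.

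The interleukin-1 family held the ligand and the antagonist with the highest levels per length in hypHSCs, *Il18* and *Il1rn*. *Il1rn*, the receptor antagonist that blocks interleukin-1 at its receptor (chr2:24226865-24241506 in mm39), stood at 18908, 25677, 12640.1, 17599.7 and 19263 normalized counts in hypHSC 1 to 5 and at 145, 46.0, 446, 887 and 186 in qHSC 1 to 5, the order in which values are given throughout. Its lowest hypHSC library was above the highest qHSC library, qHSC 4, and means were 18818 ± 4661 and 342 ± 339 (SD, n = 5 each), a log2 fold change of 6.39 ± 0.64, adjusted p = 1.39e-05 (limma's standard error follows ± for each log2 fold change). *Il1a*, the interleukin-1 that also acts from within or on the surface of the cell, was read at 450.1, 830.3, 749, 749 and 519 normalized counts in the hypHSC libraries and at 72.4, 5.96, 40.1, 271 and 22.5 in the qHSC libraries. The groups did not overlap, and *Il1a* rose with a log2 fold change of 3.93 ± 0.79, adjusted p = 0.00171. *Il1b*, the secreted interleukin-1 released after inflammasome cleavage, measured 862, 1244, 412, 612 and 852 normalized counts across hypHSCs and 441, 94.6, 227, 1288 and 136 across qHSCs. Here qHSC 4, the qHSC library with the highest macrophage sum, exceeded every hypHSC library, and the log2 fold change, 1.42 ± 0.63, adjusted p = 0.0822, was not called with all libraries but reached 1.97, adjusted p = 0.00657 and was called without qHSC 4. A share of 3.65% of the exon bases of *Il1b* is covered by *Il1bos*, whose reads, 0 to 125 normalized counts in hypHSCs and 0 to 79.6 in qHSCs, the unstranded libraries cannot fully tell from it.

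*Il18*, which like *Il1b* is cleaved in inflammasomes, stood at 2532, 2259, 2157, 3716 and 2872 normalized counts in hypHSCs, against 249, 128, 157, 787 and 118 in qHSCs. Every hypHSC library was above every qHSC library, of which qHSC 4 was again the highest, and the log2 fold change was 3.62 ± 0.46, adjusted p = 8.08e-05. Its soluble inhibitor *Il18bp* was at 7089, 5496, 5513, 8042 and 5607 normalized counts in hypHSCs and 3812, 2046, 4732, 6914 and 2431 in qHSCs. The groups overlapped through qHSC 4, and the log2 fold change of 0.79 ± 0.31, adjusted p = 0.0522 was not called, though it was 1.03, adjusted p = 0.0101 and called without qHSC 4. *Il36g*, a family member best known from epithelia, was read at 345, 753, 184, 151 and 123 normalized counts in the hypHSC libraries and at 0, 0, 0, 14.6 and 9.74 in the qHSC libraries. With no read in 3 qHSC libraries, its log2 fold change of 6.47 ± 0.94, adjusted p = 0.000198 depends on the 1 added to each value, and the groups did not overlap. Markers of cholangiocytes, the epithelium of the bile ducts, were also higher (3 of 3 tested called). Their sum was 1915, 405, 537, 123 and 275 normalized counts in hypHSC 1 to 5 and 0 to 19.0 in qHSCs, and their part was not tested. *Il33*, an alarmin held in the nucleus, went the other way, with 391, 309.5, 315, 920.1 and 1063 normalized counts in hypHSCs and 3992, 5372, 3433, 3958 and 4804 in qHSCs. It fell in every hypHSC library below the qHSC range, with a log2 fold change of -3.04 ± 0.36, adjusted p = 4.92e-05.

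**Figure D4:**
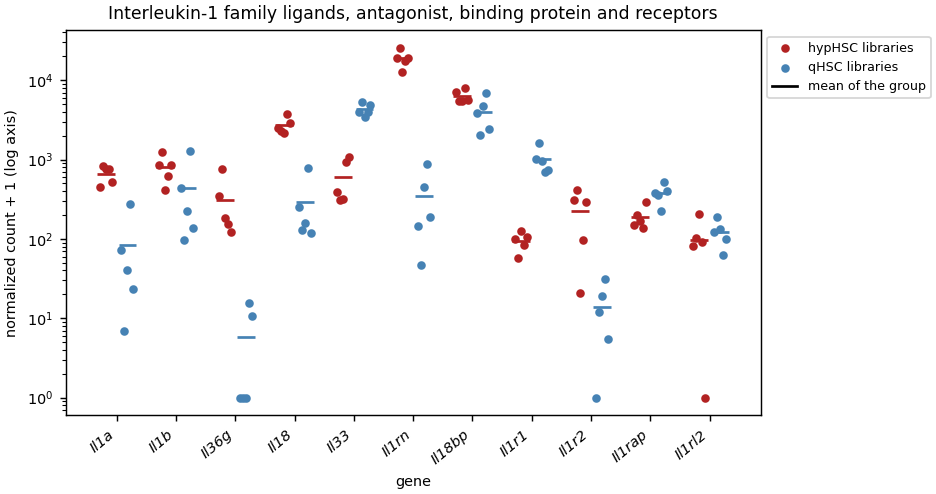
Normalized count + 1 (log axis) of 11 genes of the interleukin-1 family in each library, red for hypHSCs and blue for qHSCs, with a line at the group mean. *Il1rn* lies between 12640.1 and 25677 normalized counts in hypHSCs and at 887 or less in qHSCs, while *Il1r1* lies at 126 or less in hypHSCs and at 698 or more in qHSCs.

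Of the receptors of this family, the signalling chain *Il1r1* (chr1:40264240-40355358) measured 98.4, 55.9, 126, 82.9 and 106 normalized counts across hypHSCs and 1006, 1600.1, 964, 698 and 742 across qHSCs. The groups were far apart, and *Il1r1* fell with a log2 fold change of -3.39 ± 0.30, adjusted p = 6.56e-06. The decoy receptor *Il1r2*, which binds interleukin-1 without signalling, stood at 306, 409.96, 20.0, 95.5 and 289 normalized counts in hypHSCs, against 0, 11.1, 18.1, 29.9 and 4.50 in qHSCs. Although hypHSC 3 lay within the qHSC range, *Il1r2* rose with a log2 fold change of 4.17 ± 1.05, adjusted p = 0.00692, a call lost with hypHSCs at 12 weeks alone (3.33, adjusted p = 0.0519). Neutrophils are known to carry this decoy, and all 4 tested of 10 neutrophil markers were called higher, their list summing to 1861 to 8053 normalized counts in hypHSCs against 12.0 to 392 in qHSCs, with *Ly6g*, a defining marker, at a mean of 2.72 normalized counts in hypHSCs. Their part in the *Il1r2* difference was not tested. *Il1rap*, the accessory chain shared by interleukin-1, interleukin-33 and interleukin-36, was at 149.6, 199, 169, 135 and 295 normalized counts in hypHSCs and 377, 353, 227, 525 and 400.1 in qHSCs. Its log2 fold change of -0.99 ± 0.30, adjusted p = 0.0181 stood at the edge of the fold threshold, was not called, and was called in 4 of the 10 fits that left out a library, those without hypHSC 2, hypHSC 5, qHSC 2 or qHSC 3, at -1.16 to -0.86 over all 10. *Il1rl2*, the interleukin-36 receptor, ranged from 0 in hypHSC 5 to 206 normalized counts in hypHSCs and from 61.6 to 187 in qHSCs, and was not called (log2 fold change -1.39 ± 1.22, adjusted p = 0.372). The interleukin-33 receptor *Il1rl1* had at most 12 reads in any library, the interleukin-18 receptor chain *Il18r1* had none, and its partner *Il18rap* was read in hypHSC 1, 2 and 3 alone, at 13.5 to 48.5 normalized counts.

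Within single libraries, ratios of FPKM (reads scaled to exon length and library depth) were taken for pairs of these ligands, inhibitors and receptors. These pairs were chosen after the values had been seen, and their ratios are given without a test. Exon lengths were those of GENCODE genes and can differ from the entries counted, so a ratio is compared between groups and its size is rough. For *Il18bp* the length was 4967 bases, of a gene starting at chr7:101638490, while the entry counted spans chr7:101664281-101667897. *Il1rn* over the sum of *Il1a* and *Il1b* was 6.12 to 7.41 in the 5 hypHSC libraries, a narrow span, and 0.138 to 0.817 in qHSCs. *Il18bp* over *Il18* went the opposite way, from 5.32 to 18.3 in qHSCs down to 1.18 to 1.7 in hypHSCs. *Il1r2* over *Il1r1* was 0.43 to 19.8 in hypHSCs and 0 to 0.116 in qHSCs, so the decoy was read above the signalling chain in each hypHSC library except hypHSC 3.

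**Figure D5:**
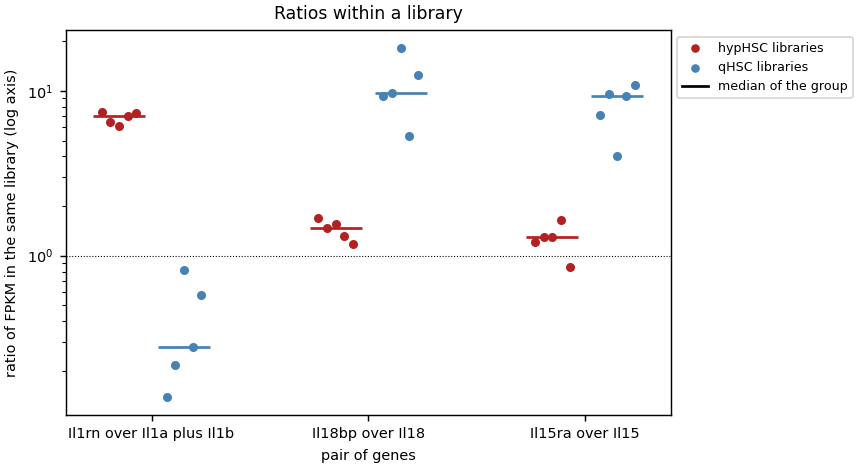
Ratio of FPKM (log axis) of *Il1rn* to *Il1a* plus *Il1b*, of *Il18bp* to *Il18* and of *Il15ra* to *Il15* in each library, with a line at the group median and a dotted line at 1. The groups do not overlap for any of these 3 ratios, with medians of 7.06 and 0.28, 1.47 and 9.7, and 1.29 and 9.33 in hypHSCs and qHSCs.

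Among the receptors of the common gamma group, *Il7r*, a chain of the receptors for interleukin-7 and thymic stromal lymphopoietin (chr15:9506245-9529962), showed the highest log2 fold change of the family. Its values were 2125, 2902, 2594, 2241 and 3734 normalized counts in hypHSC 1 to 5 and 0, 0, 2.36, 5.13 and 0 in qHSC 1 to 5, the last being at most 6 reads. The log2 fold change was 10.51 ± 0.56, adjusted p = 1.95e-07, a size that depends on the 1 added to each value, and it lay between 10.29 and 10.94 whichever library was left out. T cells are known for this receptor, and of 10 T and NK cell markers found 3 were tested and none called, their list summing to 65.7 to 783 normalized counts in hypHSCs and 23.0 to 238 in qHSCs. Its members differed, with *Klrb1c* at a mean of 89.9 normalized counts in hypHSCs and 0.15 in qHSCs, *Nkg7* at 144 and 63.9, *Cd3d* at 44.1 and 6.68, *Cd3e* at 7.02 and 1.10, and *Ncr1* at 0 in every hypHSC library. The part of such cells in the *Il7r* difference was not tested. *Il2rg*, the shared chain itself, was read at 6828, 8353, 5953, 12626 and 17484 normalized counts in the hypHSC libraries and at 561, 191, 1163, 1347 and 413 in the qHSC libraries. It rose in all 5 hypHSC libraries beyond the qHSC range (log2 fold change 4.01 ± 0.51, adjusted p = 8e-05), with hypHSC 5 and hypHSC 4 highest. *Il21r*, the interleukin-21 chain, measured 203, 213, 238, 39.9 and 37.8 normalized counts across hypHSCs and 0.91, 0, 18.1, 6.85 and 0 across qHSCs. The groups did not overlap, hypHSC 4 and 5 were lower than the other hypHSC libraries, and the log2 fold change was 5.16 ± 0.97, adjusted p = 0.00116.

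*Il15ra*, which presents interleukin-15 to neighbouring cells, moved against these, with 594, 415, 311, 408 and 520.3 normalized counts in hypHSCs and 2283, 2573, 1886, 2215 and 2010.3 in qHSCs. It fell in all 5 hypHSC libraries below the qHSC range, with a log2 fold change of -2.31 ± 0.20, adjusted p = 4.99e-06. Its ligand *Il15* ranged from 377 to 957 normalized counts in hypHSCs and from 289 to 731 in qHSCs, overlapped and was not called (log2 fold change 0.34 ± 0.33, adjusted p = 0.419), and *Il15ra* over *Il15* in FPKM went from 4.03 to 10.8 in qHSCs to 0.848 to 1.64 in hypHSCs. *Il7*, the growth factor that *Il7r* binds, stood at 166, 295, 129, 434 and 739.6 normalized counts in hypHSCs, against 672, 724, 1038, 649 and 663 in qHSCs. The groups overlapped through hypHSC 5, and *Il7* fell with a log2 fold change of -1.35 ± 0.43, adjusted p = 0.0229. This call was lost without hypHSC 1 (-1.14, adjusted p = 0.0541) or qHSC 3 (-1.22, adjusted p = 0.0576), under DESeq2 (adjusted p = 0.0645) and edgeR (-1.01, adjusted p = 0.0843), and with hypHSCs at 12 weeks alone (-1.09, adjusted p = 0.0992). *Il4ra*, the chain for interleukin-4 and interleukin-13, varied from 7.56 in hypHSC 5 to 622 normalized counts in hypHSC 3 and from 247 to 1125 in qHSCs, and its log2 fold change of -2.14 ± 1.05, adjusted p = 0.113 was not called. *Il13ra1*, its partner in the receptor for both ligands, was at 327, 463, 439.9, 496 and 442 normalized counts in hypHSCs and 1801, 2267, 1591, 1446 and 2004 in qHSCs. These groups were clearly apart, and *Il13ra1* fell with a log2 fold change of -2.06 ± 0.19, adjusted p = 7.02e-06. Of the other chains, *Il2ra* had at most 39.9 normalized counts in any library and was not called, and *Il2rb* at most 9 reads.

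The gp130 group contained the chains with the highest levels per length in qHSCs. *Il6st*, gp130 itself, was read at 337, 438, 527, 262 and 296 normalized counts in the hypHSC libraries and at 3017, 5567, 3024, 2855 and 3287 in the qHSC libraries. It fell below the qHSC range in all 5 hypHSC libraries, with a log2 fold change of -3.25 ± 0.25, adjusted p = 2.27e-06, and qHSC 2 was the highest library. *Il6ra*, the chain that binds interleukin-6 and hands it to gp130, measured 350.4, 467, 290.2, 292 and 206 normalized counts across hypHSCs and 19.0, 15.3, 9.45, 65.9 and 16.5 across qHSCs. The chains of the interleukin-6 receptor thus differed in opposite directions, *Il6ra* rising without overlap by a log2 fold change of 3.89 ± 0.50, adjusted p = 8.02e-05. The entry counted for *Il6ra* spans chr3:88641344-89820504, wider than the annotated gene, so that reads of other genes within it cannot be told apart.

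*Il11ra1*, the interleukin-11 chain, stood at 4122, 4309, 3644, 2556 and 1041 normalized counts in hypHSCs, against 11815, 12387, 10246, 6684 and 10025 in qHSCs. It fell without overlap between groups, by a log2 fold change of -1.84 ± 0.37, adjusted p = 0.00166, and hypHSC 5 was the lowest library. Its near copy *Il11ra2* was at 1315, 1416, 1272, 761 and 225 normalized counts in hypHSCs and 3982, 4262, 3654, 2417 and 3535 in qHSCs. The log2 fold change, -2.07 ± 0.45, adjusted p = 0.00306, is uncertain as a value of its own, since 48.2% of the 59-base stretches of *Il11ra2*, the length of a read, also occur in *Il11ra1*. Leaving out a library kept both calls, but neither was called when the test asked for a change beyond 1 on the log2 scale instead of beyond 0. *Il31ra*, the interleukin-31 chain, ranged from 48.4 to 265 normalized counts in hypHSCs and from 238 to 383 in qHSCs, and its call as lower (log2 fold change -1.16 ± 0.44, adjusted p = 0.0493) was kept in only 2 of the 10 fits that left out a library, those without hypHSC 1 or hypHSC 2, and lost under DESeq2 (-0.90, adjusted p = 0.056) and edgeR (-0.90, adjusted p = 0.0892). *Il27ra*, the interleukin-27 chain, ranged from 6.29 to 281 normalized counts in hypHSCs and from 158 to 297 in qHSCs and was not called with all libraries (log2 fold change -1.75 ± 0.83, adjusted p = 0.102) but was without hypHSC 2. The ligand *Il6* ranged from 14.5 to 132 normalized counts in hypHSCs and from 0 to 70.2 in qHSCs (log2 fold change 2.94 ± 1.15, adjusted p = 0.0535, not called with all libraries but called without hypHSC 2 or qHSC 4), and *Il11* 0 to 85.0 and 0 to 109.

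Interleukin-10 and its receptor were higher in part. *Il10*, the anti-inflammatory cytokine of macrophages and lymphocytes, was read at 168, 285, 210.4, 289.6 and 195 normalized counts in the hypHSC libraries and at 48.0, 6.82, 7.09, 122 and 4.50 in the qHSC libraries. All hypHSC libraries were above qHSC 4, the highest qHSC library here and in the macrophage sum, and the log2 fold change was 3.62 ± 0.81, adjusted p = 0.00351. *Il10ra*, the ligand-binding chain, measured 912, 1279, 1408, 396 and 236 normalized counts across hypHSCs and 149, 51.1, 51.2, 279.8 and 125 across qHSCs. It rose with a log2 fold change of 2.68 ± 0.61, adjusted p = 0.00385, though hypHSC 5 lay below qHSC 4. *Il10rb*, the second chain, which also serves other cytokines, stood at 8008, 8475, 6653, 7199 and 5709.6 normalized counts in hypHSCs, against 4439, 4027, 3739, 4514 and 5306 in qHSCs. Its groups did not overlap, but its log2 fold change of 0.71 ± 0.16, adjusted p = 0.00366 was under the fold threshold and turned to -0.23 when libraries were scaled on 3 reference genes, and 27.9% of its exon bases are covered by another gene.

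*Il34*, a ligand of the macrophage growth factor receptor *Csf1r* (chr8:111468461-111532556), was at 119, 109.7, 88.2, 38.8 and 0 normalized counts in hypHSCs and 2073, 2906, 2106, 1914 and 2149 in qHSCs. It showed the steepest fall of the family in log2 fold change, -6.01 ± 1.12, adjusted p = 0.0011, with no overlap. With a library left out the value lay between -6.46 and -4.74. As a ratio of means, qHSCs over hypHSCs, *Il17rc* came close, at 28 against 31.4 for *Il34*. With no read in hypHSC 5, the log2 fold change of *Il34* depends on the 1 added to each value. Its receptor *Csf1r*, one of the macrophage markers and not itself an interleukin gene, had a mean of 13955 ± 10449 normalized counts against 1497 ± 1733 in qHSCs (SD, n = 5 each), with groups that overlapped and a log2 fold change of 3.78 ± 1.01, adjusted p = 0.00925. *Il16*, a chemoattractant made from a larger precursor, was read at 291, 515, 475, 206 and 31.8 normalized counts in the hypHSC libraries and at 89.6, 14.5, 26.0, 128 and 42.0 in the qHSC libraries. With hypHSC 5 inside the qHSC range its call as higher (log2 fold change 2.23 ± 0.81, adjusted p = 0.0409) was kept in 3 of the 10 fits that left out a library, those without hypHSC 5, qHSC 1 or qHSC 4, and 21.2% of its exon bases are covered by other genes. The call was also lost with equal totals (1.89, adjusted p = 0.0858), with 3 reference genes (1.31, adjusted p = 0.117), at 12 weeks alone (1.68, adjusted p = 0.182) and with the replicate block (2.23, adjusted p = 0.0558). *Il12b*, the subunit shared by interleukin-12 and interleukin-23, measured 659, 606, 67.4, 77.6 and 260.1 normalized counts across hypHSCs and 3.62, 0, 48.0, 104 and 36.0 across qHSCs. It was called higher, log2 fold change 3.86 ± 1.24, adjusted p = 0.0234, but hypHSC 3 and 4 were below qHSC 4, and the call was lost without hypHSC 1 (3.47, adjusted p = 0.0562), hypHSC 2 (3.50, adjusted p = 0.053) or qHSC 1 (3.42, adjusted p = 0.0575), with hypHSCs at 12 weeks alone (2.86, adjusted p = 0.133) and with the replicate block (3.86, adjusted p = 0.0561). Dendritic cells are known to make this subunit, and their 5 markers, 2 of 4 tested being called higher, summed to 2035, 3547, 441, 596 and 1754 normalized counts in hypHSC 1 to 5 and to 129.5 to 739 in qHSCs, a part that was not tested. *Il27* ranged from 34.8 to 196 normalized counts in hypHSCs and from 62.5 to 109.5 in qHSCs and was not called (log2 fold change 0.31 ± 0.47, adjusted p = 0.609).

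In the interleukin-17 system the receptor chains differed in opposite directions while both classical ligands, *Il17a* and *Il17f*, had no read. *Il17ra*, the chain common to its receptors, stood at 278, 379, 306, 288 and 142 normalized counts in hypHSCs, against 43.4, 29.0, 34.6, 44.5 and 15.7 in qHSCs. All hypHSC libraries were above the qHSC range, with a log2 fold change of 3.04 ± 0.40, adjusted p = 9.99e-05. *Il17rc*, the partner of *Il17ra* for these ligands (chr6:113448416-113460124), was at 5.39, 12.4, 6.65, 5.25 and 0 normalized counts in hypHSCs and 178, 233, 184, 63.3 and 174 in qHSCs. It fell without overlap (log2 fold change -4.87 ± 0.70, adjusted p = 0.000186), although 16.4% of its exon bases are covered by another gene and qHSC 4 was well below the other qHSC libraries. *Il17rd*, a low chain with 0 to 18.9 normalized counts in hypHSCs and 15.8 to 55.4 in qHSCs, was called lower (log2 fold change -2.81 ± 0.97, adjusted p = 0.0322) in 4 of the 10 fits that left out a library, not in those without hypHSC 2, 3 or 5 or qHSC 1, 2 or 5, nor under DESeq2 (-2.04, adjusted p = 0.0933) or edgeR (-2.01, adjusted p = 0.145). *Il17rb* had at most 38.3 normalized counts in a library and was not called. The ligand *Il17d* was read in qHSCs alone, at 5.43, 5.11, 21.3, 20.5 and 31.5 normalized counts in qHSC 1 to 5, and was not tested.

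Other genes also had enough signal to be described. *Il3ra*, the interleukin-3 chain, was read at 212, 302, 193, 245 and 34.8 normalized counts in the hypHSC libraries and at 449.8, 425, 337, 348 and 349 in the qHSC libraries. Every hypHSC library was below every qHSC library, yet the log2 fold change of -1.23 ± 0.51, adjusted p = 0.0665 was not called with all libraries and was called without hypHSC 2. *Il4i1* ranged from 784 to 1864 normalized counts in hypHSCs and from 618 to 997 in qHSCs. Its log2 fold change of 0.80 ± 0.25, adjusted p = 0.022 was under the fold threshold with all libraries and was called without hypHSC 4, and its entry also counts *Nup62*, so that 88.6% of its exon bases are covered by other genes and its reads cannot be told from theirs.

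Compared per length, the interleukin receptor with the highest level in hypHSCs was *Il2rg*, at a mean of 99.2 ± 36.2 FPKM (SD, n = 5), followed by the antagonist *Il1rn* at 80.8 ± 19.7 FPKM. Their ranges, 69.3 to 153 and 63.4 to 114 FPKM, overlapped. *Il18bp* (30.5 ± 5.21 FPKM), *Il10rb* (28.3 ± 5.66 FPKM) and *Il18* (21.3 ± 3.62 FPKM) came next in hypHSCs, each within the range of its neighbour, and then *Il7r* at 13.9 ± 2.75 FPKM. In qHSCs the order began with *Il11ra2* (55.8 ± 11.4 FPKM) and *Il11ra1* (41.8 ± 9.34 FPKM), whose reads are partly shared and whose ranges overlapped. Between these genes the order depends on the lengths used, 1954 and 7484 bases, since mean normalized counts were 3570.1 and 10231. The length for *Il11ra1* is of a gene starting at chr4:41699989, before the entry counted, which starts at chr4:41760443. The *Il11ra2* entry also carries the symbol *Gm13305*. *Il18bp* (24.8 ± 12.6 FPKM), *Il10rb* (21.8 ± 1.96 FPKM), *Il33* (21.2 ± 3.17 FPKM) and *Il34* (17.9 ± 3.08 FPKM) followed with overlapping ranges, and *Il15ra* stood at 15.1 ± 1.85 FPKM. *Il18bp* and *Il10rb* were thus among the first 4 in both groups, and the ligands with the highest levels were *Il18* in hypHSCs and *Il33* in qHSCs. These orders hold only as far as the GENCODE exon lengths match the entries counted.

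The order of the libraries within a group was often the same from gene to gene. For 13 of the 14 genes called higher, qHSC 4 had the highest value of the qHSC libraries, and qHSC 4 also had the highest macrophage sum, 103681 normalized counts, and the highest sum of resident Kupffer cell markers, 39350.5 against 1139 to 17323 in the other qHSC libraries. qHSC 2, with the lowest macrophage sum, was lowest for 7 of the 14. Where libraries tied at 0, only the one with the lowest number was counted. Thus qHSC 2 was counted for *Il21r*, where qHSC 5 was also 0, but not for *Il7r* and *Il36g*, where qHSC 1 was also 0. For 11 of the 12 genes called lower, qHSC 2 was the highest qHSC library, and qHSC 4 was the lowest for 8. Of the qHSC libraries, qHSC 2 also had the highest sum of HSC markers, 2159898 normalized counts. In hypHSCs, hypHSC 2 was highest for 7 of the 14 genes called higher. The lowest was hypHSC 5 for 6 of these and for 5 of the 12 called lower, not counting *Il17rd*, where it tied with hypHSC 2 at 0. The part of macrophage and HSC marker levels in these orders was not tested.

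Several ligands and receptors that pair with others of the family were read in few libraries or at low levels, and all of them but *Il12rb2* were not tested. *Il23a*, which joins *Il12b* in interleukin-23, had 104, 65.2, 22.4, 3.15 and 16.6 normalized counts in hypHSC 1 to 5 and no more than 2 reads in a qHSC library. Against the floor of 3 reads per library, its hypHSC mean was at least 17-fold higher. *Il12rb1*, shared by the interleukin-12 and interleukin-23 receptors, had 94.4 normalized counts in hypHSC 4 and at most 12.4 in the others. *Il12a* had at most 6 reads, *Il12rb2* at most 83.9 normalized counts (log2 fold change 2.08 ± 0.87, adjusted p = 0.068, not called except without hypHSC 5) and *Il23r* at most 12 reads. *Il5*, *Il4* and *Il2* were read at up to 39, 15 and 20 reads in a library. *Il17c*, *Il17re*, *Il13ra2* and *Il20rb* had up to 21, 82, 45 and 40 reads, in libraries of both groups, and *Il22ra1* up to 5. The rest of the untested genes with reads, *Il21*, *Il5ra* and *Il1rapl2*, did not exceed 3 reads in any library. The 22 genes without a read were *Il3*, *Il9*, *Il9r*, *Il13*, *Il17a*, *Il17b*, *Il17f*, *Il18r1*, *Il19*, *Il1f10*, *Il1rapl1*, *Il20*, *Il20ra*, *Il22*, *Il22b*, *Il22ra2*, *Il24*, *Il25*, *Il31*, *Il36a*, *Il36b* and *Il36rn*. At this depth a level below the floor was not detectable in them.

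The proteins that work with this family without bearing its symbol, a list of 53 of which 50 were tested, had 10 members called higher and 10 lower, with a median log2 fold change of -0.07. This is 40% of those tested, against 39.5% of all genes, so the list as a whole did not stand out from the background, and its members are given as values. Of 13 tested partner chains and ligands, 8 were higher and 3 lower. *Osm*, oncostatin M, a ligand of the gp130 group known from myeloid cells, averaged 1669.6 ± 557 normalized counts across hypHSCs and 8.19 ± 10.4 across qHSCs (SD, n = 5 each). It rose without overlap (log2 fold change 8.44 ± 0.86, adjusted p = 1.66e-05), a size that depends on the 1 added, as qHSC 1 and qHSC 4 had no read. Its receptor chain *Osmr* had 51.1 ± 44.7 and 162 ± 77.3 normalized counts, with overlap, and was called lower (-2.01 ± 0.67, adjusted p = 0.0276), a call lost without qHSC 1, qHSC 2 or qHSC 3. *Lifr*, the other gp130 partner, fell without overlap (log2 fold change -2.94 ± 0.44, adjusted p = 0.000226), so that with *Il6st* 3 signalling chains of this group were lower. Its ligands *Lif* (4.06 ± 0.99, adjusted p = 0.00586, as log2 fold change) and *Clcf1* (1.94 ± 0.18, adjusted p = 8.91e-06) were called higher. *Ebi3*, the partner of *Il27*, averaged 1036 ± 353 normalized counts across hypHSCs and 82.8 ± 108 across qHSCs and rose without overlap (log2 fold change 5.16 ± 1.21, adjusted p = 0.00467).

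*Csf2rb* (log2 fold change 4.42 ± 1.19, adjusted p = 0.0101) and *Csf2rb2* (6.65 ± 1.15, adjusted p = 0.000669), beta chains that serve the interleukin-3 receptor, were called higher. The groups overlapped for *Csf2rb*, where hypHSC 5 (30.2 normalized counts) lay below qHSC 4 (45.4), but not for *Csf2rb2*. With no read in qHSC 2 and qHSC 5, the size for *Csf2rb2* depends on the 1 added to each value. Reads of these near copies may be split uncertainly between them. *Tslp*, whose receptor contains *Il7r* and *Crlf2*, was called lower (112 ± 154 against 432 ± 294 normalized counts, with overlap, log2 fold change -2.53 ± 0.67, adjusted p = 0.00934). *Crlf2* was not called with all libraries (log2 fold change 0.99 ± 0.46, adjusted p = 0.101) but was called without hypHSC 1. *Sigirr*, an inhibitory receptor of the interleukin-1 family, was called higher (2.39 ± 0.73, adjusted p = 0.0184). Of 4 entries of JAK kinases, one of which counts *Jak3* together with *Insl3*, a hormone gene, *Jak1*, used by both the common gamma and gp130 receptors, fell without overlap from 7152 ± 936 to 3251 ± 297 normalized counts (log2 fold change -1.13 ± 0.14, adjusted p = 7.4e-05), and none was called higher. Of the transcription factors, *Stat2* (-1.73 ± 0.46, adjusted p = 0.00981) and *Stat3* (-1.41 ± 0.40, adjusted p = 0.0124) were called lower on the log2 scale, *Stat3* not without hypHSC 5. Among 15 inhibitors, *Socs3*, a target and brake of gp130 signalling, fell without overlap from 873 ± 279 to 131 ± 92.6 normalized counts (log2 fold change -2.85 ± 0.40, adjusted p = 0.000165). *Tnfaip3* (3.78 ± 0.42, adjusted p = 3.14e-05) and *Zc3h12a* (1.72 ± 0.52, adjusted p = 0.0183), which restrain NF-κB signals and cytokine messages, rose on the log2 scale without overlap. Of 12 adaptors of interleukin-1 and interleukin-17 signalling, *Traf3ip2*, the adaptor of the interleukin-17 receptor, fell without overlap from 1399.8 ± 235 to 90.0 ± 75.6 normalized counts (log2 fold change -4.88 ± 0.90, adjusted p = 0.00106). *Nfkbiz*, a co-regulator induced by both signals, was also called lower (log2 fold change -1.94 ± 0.27, adjusted p = 0.000138), and *Myd88*, the interleukin-1 adaptor, was not (log2 fold change -1.06 ± 0.49, adjusted p = 0.0956).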

How the data were processed

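The deposited unit is a signal per gene, the normalized count: the authors mapped reads to mm39 with STAR, counted them per gene without strand using featureCounts (Subread 1.5.0) and an annotation called FAST DB, and divided each library by its DESeq2 size factor, per the study's methods and the labels. Each library's factor was estimated from its own values, as the number that turns them into whole reads. Multiplying by this estimate gave whole reads for 100% of values (tolerance 0.0051), and these reads served for depth, FPKM, DESeq2 1.42.0 and edgeR 4.0.16.

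Entries that carry a symbol and reach 10 normalized counts in 5 or more of the 10 libraries were compared with limma 3.58.1 (lmFit, eBayes with trend) in R 4.3.3 on log2(normalized count + 1), with Benjamini-Hochberg adjustment over all 14630 genes. Calls needed an absolute log2 fold change of 1 and an adjusted p of 0.05. Where a library had no read, the size of the log2 fold change depends on the 1 added. Exact two-sided permutation tests used all 252 arrangements.

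Alternatives changed 1 choice at a time: the added count, the filter, the scaling, the test, a replicate block, the weeks of diet and each library left out. Those that left out hypHSC 5 with qHSC 4, and that included entries without a symbol, were added after seeing the data.

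The family was picked as a subject, and the roles, partner and marker lists were drawn up, with earlier results of these data known, and its members were then taken by symbol. Members were named if called or at a mean of 100 normalized counts in a group. Partners were named if they are chains or ligands, or among the 5 largest called changes in a direction with that mean. Members below that mean, ratios, the other called partners and *Myd88* were named after their values were seen. A partner that this rule names is not reported here. The floor covers counting error only, and SDs and standard errors the spread between preparations.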

Additional observations from a re-analysis of the deposited data

Results flagged for a closer look

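In groups of 5 libraries, a library counts as far from the others where its gap to the nearest one takes up more than 0.71 of the whole range (Dixon's test, on log2 values), which chance gives in about 1 of 20 groups. Of 69 groups tested among the named genes, 8 held such a library.

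In hypHSCs, hypHSC 5 was the lowest for *Il1rl2* (0 normalized counts, the others 79.5 to 206), *Il3ra* (34.8 against 193 to 302) and *Il34* (0 against 38.8 to 119), and hypHSC 1 was the lowest for *Il13ra1* (327 against 439.9 to 496). In qHSCs, qHSC 2 was the highest for *Il6st* (5567 against 2855 to 3287) and *Il34* (2906 against 1914 to 2149), qHSC 3 the highest for *Il7* (1038 against 649 to 724), and qHSC 4 the lowest for *Il17rc* (63.3 against 174 to 233). *Il6st*, *Il34*, *Il17rc* and *Il13ra1* stayed called lower with any library left out.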

How the results depend on the processing

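Of the 26 called genes, 21 kept their call with any library left out, 22 under DESeq2, edgeR and 4 other scalings (not *Il7*, *Il16*, *Il17rd* and *Il31ra*), and 18 under every alternative. With a library left out, the family had 12 to 17 genes higher and 10 to 14 lower, and the partners 10 to 12 and 9 to 13. Counts moved by more than 1.5 times in 5 cases, whose causes were not tested. Testing against a log2 change of 1, a stricter test, left 7 of the family (5 receptors) and 5 of the partners lower. With hypHSCs at 12 weeks alone, which has fewer libraries and drops the 13-week preparations, 6 partners were called higher. A scaling on *Hprt*, *Pgk1* and *Actb* gave 22 partners lower. Scaling moved the median log2 fold change of all genes from -0.197 to -0.544 with equal totals and -1.12 with these 3 genes. Under the latter, uncalled values turned to -0.23 (*Il10rb*), -0.14 (*Il4i1*), -0.15 (*Il18bp*), -0.62 (*Il27*) and -0.59 (*Il15*), and with equal totals to -0.04 (*Il27*) and -0.01 (*Il15*). With those 3 genes, the family had 13 genes higher and 16 lower. With the replicate block, 12 were higher and 13 lower, and of the partners 10 and 12. Shared replicate numbers did not pair the libraries, with correlations of 0.00815 to 0.129. Genes near the floor of 3 reads could not be compared at this depth.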
